A study of Mus musculus with 12 samples.

Results

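The 34 genes described here are Trp53, which encodes p53, its regulators Mdm2 and Ppm1d, and targets of p53. The targets are grouped by role under cell cycle arrest, stress and metabolism, survival and death signalling, and DNA repair. The 34 were taken by gene symbol. All 34 were among the 47069 genes of the expression table, each listed under 1 identifier, and all 34 passed the filter on low values (a mean of at least 0.1 FPKM over the 12 libraries) that left 17386 genes for testing. The study sequenced polyadenylated RNA from livers of mice at postnatal day 14, and asked how the liver responds when its hepatocytes cannot divide. The 4 groups, with 3 libraries each, were isolated hepatocytes from wild type (WT) mice, isolated hepatocytes from Cdk1 Liv-/- mice, whole liver from WT mice and whole liver from Cdk1 Liv-/- mice. Cdk1 Liv-/- mice have both copies of Cdk1, the kinase that starts mitosis, flanked by loxP sites (Cdk1 flox/flox) and carry Albumin-Cre. The Albumin promoter drives Cre in cells of the hepatocyte lineage, and whole liver also holds RNA of other cells, whose Cdk1 these libraries do not tell apart from that of hepatocytes. The labels give the WT mice no alleles, and no source used here names the strain. The study's methods speak of biological replicates but the labels do not tie a library to an animal, so p-values measure the spread between these libraries.

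p53 is a transcription factor that Mdm2, a ubiquitin ligase, keeps at a low level by marking it for degradation, and that is stabilised after DNA damage, stalled replication or failed division. Much of its activation is at the protein level, while its targets, Mdm2 among them, respond as RNA. In the liver it is known for restraining the cycle of hepatocytes with damaged or extra genomes and for its targets in metabolism.

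Levels are given in FPKM, fragment counts scaled by transcript length and by library size, and the 3 values of a group are always in the order of replicates 1, 2 and 3. Changes are differences of log2(FPKM + 0.5), Cdk1 Liv-/- minus WT, fitted with limma within hepatocytes or within whole liver, with the standard error (SE) and a p-value adjusted over the 17386 genes. A gene passed the test when this was 0.1 or less. The added 0.5 makes this scale understate the changes of genes with low FPKM. Cdk1, the targeted gene, was at 27.9, 20.4 and 28.2 FPKM in WT and 9.68, 11.8 and 6.87 FPKM in Cdk1 Liv-/- hepatocytes. In whole liver it was at 25.3, 22.7 and 21.5 FPKM in WT and 11.7, 12.1 and 14.2 FPKM in Cdk1 Liv-/- mice. These values are of the whole gene and also count reads outside exon 3. Every Cdk1 Liv-/- library lay below every WT library of its compartment, and the change was -1.40 (SE 0.22, adjusted p = 0.0148) in hepatocytes and -0.85 (SE 0.098, adjusted p = 0.00353) in whole liver. Replicate 3 of Cdk1 Liv-/- whole liver stood apart from the other 11 libraries: Xist, the RNA of the inactive X chromosome of females, was at 158 FPKM there and at most 0.14 FPKM elsewhere, and Kdm5d, Uty, Eif2s3y and Ddx3y, all on the Y chromosome, were at 0. The study's methods describe male animals alone. That library is called the Xist-positive library here. Whole liver counts, and the whole liver changes of the genes that passed, are given with and without it. This covers the 34 genes and the genes named from further lists. Counts by role, and counts under other rules or settings, are given with that library alone. Without it, the whole liver change of Cdk1 was -0.93 and still past the test.

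Depth was read from the steps that single reads leave among low FPKM values. An FPKM of 1 on 1 kb of transcript stood for 50, 38.7 and 47.0 reads in WT hepatocytes, 40.6, 39.2 and 35.0 in Cdk1 Liv-/- hepatocytes, 41.8, 41.9 and 43.4 in WT whole liver and 47.8, 47.6 and 48.3 in Cdk1 Liv-/- whole liver. At 0.1 FPKM, a transcript of 1 kb therefore rested on 3.5 to 5.0 reads, and levels that low carry a large counting error.

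In Cdk1 Liv-/- hepatocytes 18 of the 34 genes were higher than in WT and 0 were lower. Of all 17386 genes, 12.1% were higher and 6.61% lower by the same test. Cdkn1a, Ccng1, Phlda3, Gdf15, Eda2r and Aen were among those that rose, at 2.07 to 34.2 times the WT mean. In Cdk1 Liv-/- whole liver 26 of the 34 were higher and 0 lower, against 38.0% of all genes higher and 7.53% lower. The 18 genes that rose in hepatocytes all rose in whole liver as well, where Trp53, Plk2, Sesn1, Sesn2, Trp53inp1, Perp, Cd82 and Xpc also did. These 8, with the exception of Trp53, lie outside the rule for named genes and are named after their values were seen, as are the 8 that passed in neither compartment: Ppm1d, Dcxr, Pmm1, Fas, Ei24, Ddb2, Rrm2b and Ercc5.

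The share of members that rose lay above that of all genes in both compartments. As the members were chosen with earlier results of these data known, this comparison is a description and not a test of the group. With a log2 change of at least 1 required too, 15 members were higher in hepatocytes, where 4.20% of all genes were, and 15 in whole liver, where 4.59% were. All 3 Cdk1 Liv-/- libraries lay above all 3 WT libraries for 21 members in hepatocytes, against 20.6% of all genes, and for 25 in whole liver, against 43.2%. The counts of 0 lower members are from limma. At an unadjusted p of at most 0.05, 0 members were lower in hepatocytes and 1 in whole liver, where 11% and 7.74% of all genes were, and a two-sample test per gene with q-values also gave 0 and 1. The whole liver gene is Dcxr.

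The median change of the 34 genes was 0.63 in hepatocytes, where that of all genes was 0.049, and 0.66 in whole liver, where that of all genes was 0.18. For some members the whole liver change is therefore also given relative to this shift of 0.18. Of the 34 members, 28 lay above it, and the median of all 34 exceeded it by 0.48. Dividing FPKM by median-ratio size factors removed the shift, to a median of 0.013 over all genes. The share of higher among all genes called then went from 83.5% to 52.2% in whole liver and from 64.7% to 54.7% in hepatocytes. On that scale 19 members were higher and 3 lower in whole liver, against 17.9% and 16.4% of all genes, and 17 were higher and 0 lower in hepatocytes, against 9.83% and 8.13%. Sesn1, Sesn2, Fdxr, Perp, Pidd1, Cd82 and Xpc were no longer past the test in whole liver, and Dcxr, Ei24 and Ercc5 passed as lower, a smaller share than that of all genes, at -0.54, -0.23 and -0.23.

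Without the Xist-positive library, 24 members were higher and 1 lower in whole liver, while 31.5% of all genes were higher and 5.71% lower. Sesn1 (adjusted p = 0.1402) and Perp (adjusted p = 0.219) no longer passed, and Dcxr passed as lower, at -0.40 (adjusted p = 0.0945). The range of the adjusted p over all alternatives was 0.0476 to 0.602 for Sesn1, 0.0387 to 0.674 for Perp and 0.0397 to 0.252 for Dcxr. The other 24 members that rose in whole liver passed with and without that library. Leaving out WT whole liver replicate 1 instead gave 20 higher, and 4509 of the 17386 genes, and Sesn1, Sesn2, Perp, Pidd1, Cd82 and Xpc, whose adjusted p reached 0.602, 0.126, 0.674, 0.288, 0.574 and 0.569 over all alternatives, did not pass.

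**Figure D1:**
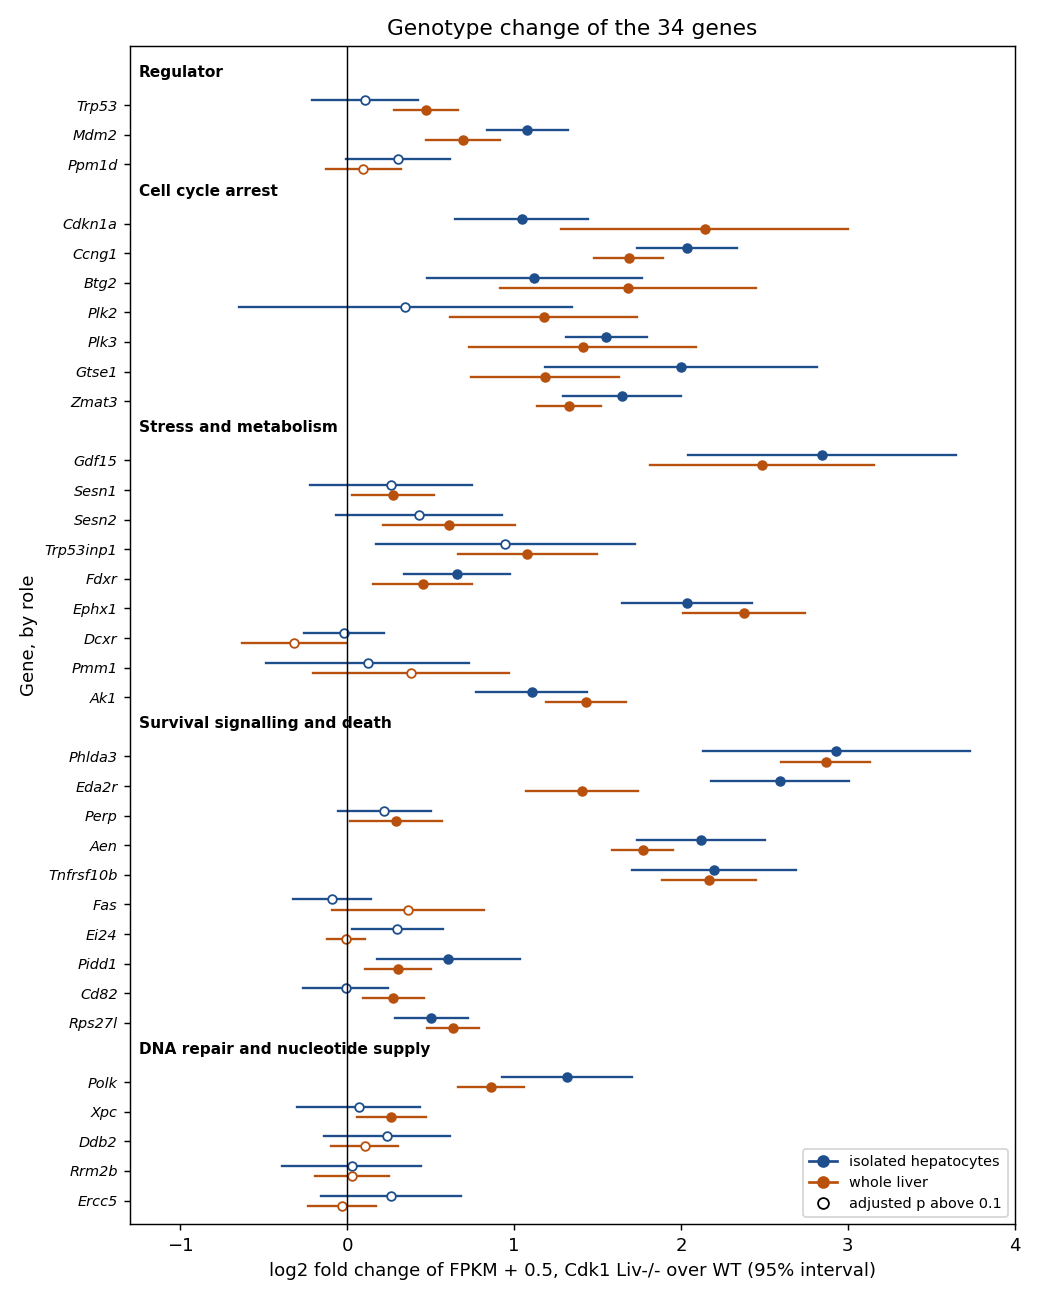
Log2 fold change of FPKM + 0.5, Cdk1 Liv-/- over WT (horizontal axis), for each of the 34 genes by role (vertical axis), in isolated hepatocytes (blue) and whole liver (orange). Points are limma estimates from 3 against 3 libraries, bars are 95% intervals, and open points have an adjusted p above 0.1. The genes grouped under arrest lie to the right of 0 and most repair genes near 0. With size factors the whole liver change of Ppm1d turns from 0.095 to -0.096, neither past the test.

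Of the 3 regulators, Mdm2 rose in both compartments and Trp53 in whole liver. Trp53 (ENSMUSG00000059552, chromosome 11, 69580359 to 69591873, plus strand, in GRCm38) was at 10.8, 10.5 and 13.5 FPKM in WT and 12.7, 13.6 and 11.2 FPKM in Cdk1 Liv-/- hepatocytes, where the groups overlapped. Its whole liver levels were 13.99, 15.5 and 14.4 FPKM in WT and 19.7, 22.4 and 19.4 FPKM in Cdk1 Liv-/- mice. The Cdk1 Liv-/- whole liver libraries were the 3 highest of all 12, and the 2 lowest levels were in WT hepatocytes. The change was 0.10 (SE 0.13, adjusted p = 0.642) in hepatocytes and 0.47 (SE 0.077, adjusted p = 0.00877) in whole liver, or 0.51 without the Xist-positive library. Relative to the median of all genes the whole liver change was 0.29, and it was 0.26 with size factors (adjusted p = 0.0327). The difference of the 2 changes was -0.37 (SE 0.16, adjusted p = 0.184) and did not pass.

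Mdm2 (chromosome 10, 117688875 to 117710758, minus strand), the ubiquitin ligase that p53 itself induces, was at 10.5, 10.02 and 10.3 FPKM in WT and 24.4, 22.7 and 19.8 FPKM in Cdk1 Liv-/- hepatocytes. Whole liver held 9.15, 10.5 and 9.62 FPKM in WT and 17.5, 16.5 and 14.4 FPKM in Cdk1 Liv-/- mice. WT levels were close to 10 FPKM in both compartments, and each Cdk1 Liv-/- library lay above all WT libraries. It rose by 1.08 (SE 0.099, adjusted p = 0.00319) in hepatocytes and by 0.69 (SE 0.091, adjusted p = 0.00491) in whole liver, where the value was 0.77 without the Xist-positive library and 0.51 relative to all genes. Ppm1d, a phosphatase that turns p53 signalling off, ranged from 2.80 to 4.09 FPKM over the 12 libraries. It passed in neither compartment, with changes of 0.30 and 0.095, the latter -0.096 with size factors. In hepatocytes each Cdk1 Liv-/- library lay above every WT library. Ppm1d passed there in 2 of 14 alternatives, the fit of all 12 libraries and the two-sample test.

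**Figure D2:**
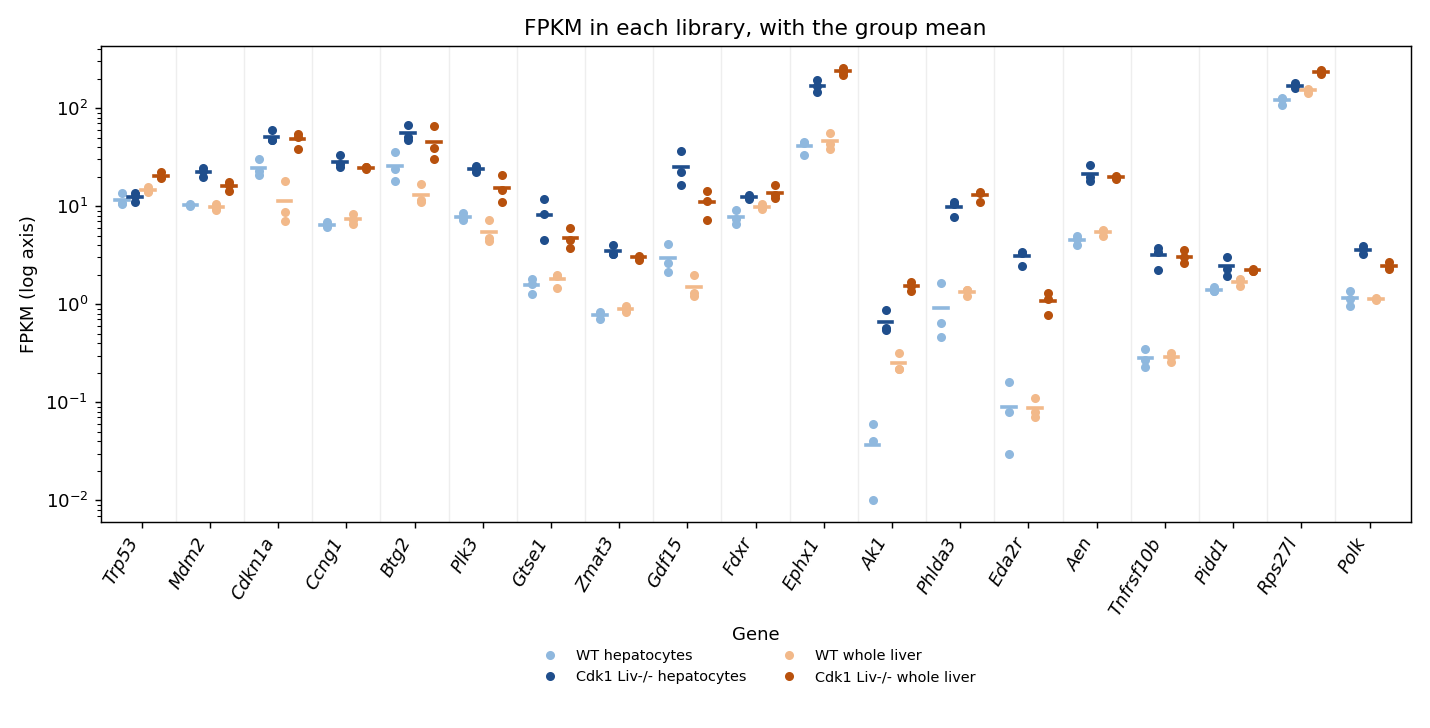
FPKM on a log axis (vertical) of the 19 named genes (horizontal) in each of the 12 libraries. Points are libraries and short bars the means of the 3 libraries of a group: WT and Cdk1 Liv-/- hepatocytes in light and dark blue, WT and Cdk1 Liv-/- whole liver in light and dark orange. For every gene shown but Trp53 in hepatocytes, the 3 Cdk1 Liv-/- libraries lie above the 3 WT libraries of the same compartment.

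Of the 7 genes grouped under arrest, 6 rose in hepatocytes and 7 in whole liver, with median changes of 1.55 and 1.41. Of all genes 12.1% and 38.0% rose, with medians of 0.049 and 0.18. Gtse1 is counted in this group, though it is a protein of G2 and S phase that carries p53 out of the nucleus. Cdkn1a encodes p21, the inhibitor of cyclin-dependent kinases through which p53 halts the cycle. It lies on chromosome 17 (29090976 to 29100727, plus strand). Its promoter is shown because p21 is the best known p53 target and because its window was the only one of a member that held an exact pair of decamers: the 250 bases before to 50 after each annotated start were searched for the p53 consensus decamer (3 purines, C, 2 bases that are A or T, G, 3 pyrimidines) and for pairs of it with at most 13 bases between. The decamer is its own reverse complement, so both strands are covered. Sequences are from RefSeq on GRCm38.p6 and run 5′ to 3′ on the strand of the gene, and for Cdkn1a (chr17:29090729-29090975, plus strand, before the first exon) the capitals mark both decamers and the 12 bases between them, from position -73 to -42 (chr17:29090906-29090937).
Cdkn1a: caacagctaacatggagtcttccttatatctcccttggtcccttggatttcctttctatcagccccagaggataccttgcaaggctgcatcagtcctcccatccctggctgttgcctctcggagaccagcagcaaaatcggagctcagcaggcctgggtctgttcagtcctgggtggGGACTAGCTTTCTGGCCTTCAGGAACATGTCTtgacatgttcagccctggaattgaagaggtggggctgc

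A pair with 0 mismatches was found in 0.0731% of all 32851 windows, and among the members in Cdkn1a alone. A match is a description of the letters and not a site or a cause.

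Cdkn1a was at 21.01, 22.7 and 30.4 FPKM in WT and 59.2, 47.6 and 46.8 FPKM in Cdk1 Liv-/- hepatocytes, and at 7, 8.72 and 17.95 FPKM in WT and 38.4, 50.6 and 54.8 FPKM in Cdk1 Liv-/- whole liver. Cdk1 Liv-/- livers and Cdk1 Liv-/- hepatocytes reached similar levels, while the WT livers were lower than the WT hepatocytes, with replicate 3 the highest WT liver. The change was 1.05 (SE 0.16, adjusted p = 0.0147) in hepatocytes and 2.14 (SE 0.35, adjusted p = 0.00875) in whole liver, 2.04 without the Xist-positive library. Part of an antisense transcript overlaps Cdkn1a over 273 exonic bases; how the authors' counting used the strand is not given in the sources used here, so reads of the 2 cannot be told apart over that stretch.

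Ccng1 encodes cyclin G1, which recruits a phosphatase to Mdm2. The part of its window before the first exon (chr11:40755312-40755536, minus strand) held a pair of decamers with no base between them and 1 mismatch, from -195 to -176, and the capitals mark that pair.
Ccng1: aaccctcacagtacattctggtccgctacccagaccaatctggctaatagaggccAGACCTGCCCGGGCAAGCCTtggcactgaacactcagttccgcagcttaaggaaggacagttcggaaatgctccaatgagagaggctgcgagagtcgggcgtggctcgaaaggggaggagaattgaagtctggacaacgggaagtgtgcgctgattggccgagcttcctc

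Ccng1 was at 6.51, 6.14 and 6.83 FPKM in WT and 26.9, 33.1 and 24.9 FPKM in Cdk1 Liv-/- hepatocytes. In whole liver it was at 7.17, 8.23 and 6.66 FPKM in WT and 25.1, 24.9 and 23.96 FPKM in Cdk1 Liv-/- mice. The Cdk1 Liv-/- libraries of both compartments stood at more than 23 FPKM and the WT libraries at less than 9 FPKM, with little spread within a group. Changes were 2.03 (SE 0.12, adjusted p = 0.00114) in hepatocytes and 1.69 (SE 0.084, adjusted p = 0.000286) in whole liver (1.71 without the Xist-positive library).

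Gtse1 encodes a microtubule-bound protein of G2 and S phase that carries p53 out of the nucleus. A pair with 1 mismatch covers the second of its 2 annotated starts (chr15:85859945-85859964, plus strand), with 19 of its 20 bases in an exon, and the capitals mark the pair.
Gtse1: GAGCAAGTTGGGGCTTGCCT

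Gtse1 was at 1.26, 1.61 and 1.8 FPKM in WT and 8.4, 11.8 and 4.48 FPKM in Cdk1 Liv-/- hepatocytes, and at 2, 1.94 and 1.46 FPKM in WT and 4.57, 3.79 and 5.96 FPKM in Cdk1 Liv-/- whole liver. Cdk1 Liv-/- replicate 3 had the lowest level of the Cdk1 Liv-/- hepatocyte libraries and the Xist-positive library the highest of the Cdk1 Liv-/- livers, and neither compartment's groups overlapped. The change was 2.00 (SE 0.34, adjusted p = 0.0179) in hepatocytes and 1.19 (SE 0.18, adjusted p = 0.00723) in whole liver, 1.03 without that library.

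Zmat3, a zinc finger protein that binds RNA and slows growth, was at 0.84, 0.71 and 0.8 FPKM in WT and 3.28, 4.01 and 3.28 FPKM in Cdk1 Liv-/- hepatocytes, and at 0.88, 0.96 and 0.84 FPKM in WT and 2.84, 3.13 and 3.04 FPKM in Cdk1 Liv-/- whole liver. Every WT library was below 1 FPKM and every Cdk1 Liv-/- library above 2.8 FPKM. Zmat3 rose by 1.65 (SE 0.15, adjusted p = 0.00291) in hepatocytes and by 1.33 (SE 0.078, adjusted p = 0.000466) in whole liver (1.32 without the Xist-positive library).

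Btg2, Plk2 and Plk3 are p53 targets that are also known as early response genes. Btg2, which slows entry into S phase, was at 35.9, 18.03 and 23.7 FPKM in WT and 68.1, 50.99 and 47.2 FPKM in Cdk1 Liv-/- hepatocytes, and at 10.97, 11.5 and 16.96 FPKM in WT and 38.8, 65.1 and 30.2 FPKM in Cdk1 Liv-/- whole liver. Its libraries spread widely within each group without overlapping between genotypes. The change was 1.12 (SE 0.27, adjusted p = 0.0492) in hepatocytes and 1.68 (SE 0.31, adjusted p = 0.0125) in whole liver, 1.92 without the Xist-positive library. The hepatocyte call was lost without WT replicate 3, Cdk1 Liv-/- replicate 1 or Cdk1 Liv-/- replicate 2 and with no filter on low values, and its adjusted p ranged from 0.0236 to 0.128 over all alternatives.

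Plk3, a polo-like kinase of the stress response, was at 7.16, 8.48 and 7.85 FPKM in WT and 24.04, 22.2 and 25.6 FPKM in Cdk1 Liv-/- hepatocytes. Whole liver levels were 4.76, 4.39 and 7.22 FPKM in WT and 11, 20.9 and 14.6 FPKM in Cdk1 Liv-/- mice. The Cdk1 Liv-/- hepatocytes were the highest of the 4 groups, with no overlap with any other. Plk3 rose by 1.55 (SE 0.10, adjusted p = 0.00128) in hepatocytes and 1.41 (SE 0.28, adjusted p = 0.0147) in whole liver (1.43 without the Xist-positive library). Plk2, its relative, was at 5.4, 3.78 and 13.1 FPKM in WT and 8.21, 9.37 and 7.76 FPKM in Cdk1 Liv-/- hepatocytes, and WT replicate 3 exceeded all Cdk1 Liv-/- libraries. Its hepatocyte change of 0.35 (SE 0.41, adjusted p = 0.618) became 0.83 without that replicate (adjusted p = 0.0667, range 0.0667 to 0.997 over all alternatives), and in whole liver it rose by 1.18 (SE 0.23, adjusted p = 0.0144), from 4.2, 5.13 and 7.01 FPKM to 12.6, 16.1 and 10.1 FPKM (1.34 without the Xist-positive library).

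Among the 9 stress and metabolism genes, 4 rose in hepatocytes and 7 in whole liver, with medians of 0.66 and 0.61. For all genes the shares were 12.1% and 38.0% and the medians 0.049 and 0.18. Gdf15, a secreted hormone of cell stress, was at 4.07, 2.14 and 2.64 FPKM in WT and 36.2, 22.2 and 16.3 FPKM in Cdk1 Liv-/- hepatocytes, and at 1.21, 1.29 and 2 FPKM in WT and 11.4, 14.2 and 7.2 FPKM in Cdk1 Liv-/- whole liver. Hepatocytes of each genotype held more of it than whole liver, and the lowest Cdk1 Liv-/- library was above the highest WT library in both compartments. The change was 2.84 (SE 0.33, adjusted p = 0.00614) in hepatocytes and 2.49 (SE 0.27, adjusted p = 0.003104) in whole liver, 2.75 without the Xist-positive library, which had the lowest level of the Cdk1 Liv-/- livers.

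Ephx1, the microsomal epoxide hydrolase of xenobiotic metabolism, had high levels per length: 32.9, 45.6 and 44.4 FPKM in WT and 193, 146 and 167 FPKM in Cdk1 Liv-/- hepatocytes, and 38.6, 55.9 and 42.7 FPKM in WT and 235, 217 and 259 FPKM in Cdk1 Liv-/- whole liver. Each Cdk1 Liv-/- library exceeded 140 FPKM and no WT library reached 60 FPKM. It rose by 2.04 (SE 0.16, adjusted p = 0.00196) in hepatocytes and 2.38 (SE 0.15, adjusted p = 0.000566) in whole liver (2.31 without the Xist-positive library). Ephx1 shares 72 exonic bases with Gm36961 on the same strand, whose reads cannot be told apart from its own there.

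Ak1, an adenylate kinase better known from muscle, was close to the limit of detection in WT hepatocytes, at 0.06, 0.01 and 0.04 FPKM, and at 0.57, 0.88 and 0.54 FPKM in Cdk1 Liv-/- hepatocytes. In whole liver it was at 0.22, 0.22 and 0.32 FPKM in WT and 1.38, 1.53 and 1.68 FPKM in Cdk1 Liv-/- mice. Its level in Cdk1 Liv-/- hepatocytes stayed below that in Cdk1 Liv-/- whole liver, with no overlap between any of the 4 groups. The change was 1.11 (SE 0.14, adjusted p = 0.00695) in hepatocytes and 1.43 (SE 0.097, adjusted p = 0.000739) in whole liver (1.38 without the Xist-positive library). The ratio of the means was 18.1 in hepatocytes and 6.04 in whole liver, the reverse order of the log2 changes. The hepatocyte ratio rests on few reads in WT. The difference of the log2 changes, hepatocytes minus whole liver, was -0.325 and ran from -0.45 to 0.26 over the alternatives, without passing in any.

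Fdxr, a mitochondrial reductase that feeds electrons to steroid and iron-sulfur enzymes, changed less. It was at 6.63, 7.37 and 9.08 FPKM in WT and 12.9, 12.4 and 11.7 FPKM in Cdk1 Liv-/- hepatocytes, and at 10.4, 9.79 and 9.33 FPKM in WT and 12.1, 16.3 and 12.9 FPKM in Cdk1 Liv-/- whole liver. The groups did not overlap in either compartment. Fdxr rose by 0.66 (SE 0.13, adjusted p = 0.03002) in hepatocytes and 0.45 (SE 0.12, adjusted p = 0.0346) in whole liver (0.49 without the Xist-positive library), but relative to all genes the whole liver change was 0.27, and with size factors it did not pass (adjusted p = 0.169, range 0.02503 to 0.169 over all alternatives). Sesn1 and Sesn2, which restrain mTORC1, and Trp53inp1, an autophagy and stress protein, rose in whole liver by 0.27, 0.61 and 1.08. Without the Xist-positive library the changes were 0.29, 0.67 and 1.04, and Sesn1 did not pass. Relative to all genes they were 0.091, 0.43 and 0.90. With size factors they were 0.067, 0.41 and 0.86, and of these only Trp53inp1 passed. The hepatocyte changes of 0.26, 0.43 and 0.95 did not pass. Dcxr, a carbonyl reductase, had all 3 Cdk1 Liv-/- livers below all 3 WT livers, at 67.2, 51.5 and 69.2 FPKM against 83.1, 77.8 and 72.3 FPKM, with a change of -0.32 (SE 0.13, adjusted p = 0.1002). Pmm1, a phosphomannomutase, ranged from 0.94 to 3.48 FPKM and passed in neither compartment.

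Of the 10 genes of survival signalling and death, 6 rose in hepatocytes and 8 in whole liver, with medians of 0.55 and 0.50. The shares of all genes that rose were 12.1% and 38.0%, with medians of 0.049 and 0.18. Phlda3, which blocks the membrane binding of Akt, was at 0.65, 0.46 and 1.66 FPKM in WT and 11.1, 10.7 and 7.7 FPKM in Cdk1 Liv-/- hepatocytes, and at 1.21, 1.4 and 1.4 FPKM in WT and 11.2, 13.6 and 14.1 FPKM in Cdk1 Liv-/- whole liver. WT hepatocyte replicate 3 was the highest WT library, and every Cdk1 Liv-/- library was at least 4 times above it. With 0.5 added, Phlda3 had the largest log2 change of the 34 genes in both compartments, though not the largest ratio of means (10.6 in hepatocytes and 9.69 in whole liver); the change was 2.93 (SE 0.33, adjusted p = 0.00556) in hepatocytes and 2.87 (SE 0.11, adjusted p = 0.000163) in whole liver (2.81 without the Xist-positive library).

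Eda2r, an X-linked receptor of the tumour necrosis factor family (ENSMUSG00000034457, chromosome X, 97333840 to 97377216, minus strand), was near the limit of detection in WT libraries, at 0.16, 0.03 and 0.08 FPKM in hepatocytes and 0.08, 0.07 and 0.11 FPKM in whole liver. Cdk1 Liv-/- hepatocytes held 2.48, 3.35 and 3.39 FPKM and Cdk1 Liv-/- whole liver 1.14, 0.78 and 1.29 FPKM. The Cdk1 Liv-/- hepatocytes were all above the Cdk1 Liv-/- livers, which were all above the WT libraries. The change was 2.59 (SE 0.17, adjusted p = 0.00129) in hepatocytes and 1.41 (SE 0.14, adjusted p = 0.00226) in whole liver, 1.31 without the Xist-positive library. The means were 34.2 and 12.4 times those of WT, folds that rest on few reads in WT.

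Tnfrsf10b, the death receptor for TRAIL, was at 0.27, 0.23 and 0.35 FPKM in WT and 3.76, 3.41 and 2.26 FPKM in Cdk1 Liv-/- hepatocytes, and at 0.29, 0.32 and 0.26 FPKM in WT and 2.61, 3.54 and 3.04 FPKM in Cdk1 Liv-/- whole liver. All WT libraries were at or below 0.35 FPKM and all Cdk1 Liv-/- libraries above 2.2 FPKM. It rose by 2.20 (SE 0.20, adjusted p = 0.00319) in hepatocytes and 2.17 (SE 0.11, adjusted p = 0.000376) in whole liver (2.17 without the Xist-positive library). Aen, a nuclease of apoptosis, was at 4.92, 4.04 and 4.62 FPKM in WT and 19.98, 26.3 and 18.3 FPKM in Cdk1 Liv-/- hepatocytes, and at 5.63, 5.78 and 4.92 FPKM in WT and 19.9, 18.95 and 20.3 FPKM in Cdk1 Liv-/- whole liver. Its Cdk1 Liv-/- levels were much the same in both compartments and more than 3 times any WT level. The changes were 2.12 (SE 0.16, adjusted p = 0.00183) in hepatocytes and 1.77 (SE 0.075, adjusted p = 0.000206) in whole liver (1.75 without the Xist-positive library).

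Pidd1, the scaffold that activates caspase-2 when centrosomes are in excess, was at 1.37, 1.49 and 1.35 FPKM in WT and 2.28, 3.04 and 1.96 FPKM in Cdk1 Liv-/- hepatocytes. Whole liver held 1.54, 1.78 and 1.79 FPKM in WT and 2.19, 2.17 and 2.28 FPKM in Cdk1 Liv-/- mice. The genotypes did not overlap, yet the steps were small. Its change was 0.60 (SE 0.18, adjusted p = 0.0833) in hepatocytes, lost in 8 of 14 alternatives (5 of them the removal of WT replicate 1, 2 or 3 or Cdk1 Liv-/- replicate 1 or 2; range of the adjusted p 0.00854 to 0.193), and 0.30 (SE 0.080, adjusted p = 0.0345) in whole liver (0.28 without the Xist-positive library), 0.12 relative to all genes.

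Rps27l, a ribosomal protein paralogue that restrains Mdm2, was, per length, among the most abundant of the 34. The part of a window of it that lies in an intron of a longer transcript (chr9:66946181-66946354, plus strand) held a pair of decamers with 1 mismatch from -117 to -98, marked by the capitals.
Rps27l: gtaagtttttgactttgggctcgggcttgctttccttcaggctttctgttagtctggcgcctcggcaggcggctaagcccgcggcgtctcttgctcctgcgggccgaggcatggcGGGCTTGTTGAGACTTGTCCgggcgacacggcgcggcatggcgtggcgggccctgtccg

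Rps27l was at 125, 127 and 107 FPKM in WT and 162, 179 and 168 FPKM in Cdk1 Liv-/- hepatocytes, and at 155, 159 and 143 FPKM in WT and 225, 244 and 238 FPKM in Cdk1 Liv-/- whole liver. The genotypes were apart in both compartments by more than the spread within a group. It rose by 0.50 (SE 0.091, adjusted p = 0.0221) in hepatocytes and 0.63 (SE 0.063, adjusted p = 0.00242) in whole liver (0.62 without the Xist-positive library, 0.45 relative to all genes). Perp, a desmosome protein, and Cd82, a tetraspanin, rose in whole liver by 0.29 and 0.28. Without the Xist-positive library the changes were 0.22 and 0.34, and Perp did not pass. Relative to all genes they were 0.11 and 0.095, and with size factors 0.073 and 0.058, neither past the test. Hepatocyte changes were 0.22 and -0.010, and Perp libraries overlapped between genotypes in both compartments. The death receptor Fas (-0.090 in hepatocytes and 0.37 in whole liver) and Ei24, a membrane protein of the endoplasmic reticulum (0.30 and -0.0064), passed in neither.

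The 5 repair genes moved least: 1 rose in hepatocytes and 2 in whole liver, shares not far from those of all genes, with medians of 0.24 and 0.10. Polk encodes DNA polymerase kappa, which copies past damaged bases. It was at 1.38, 0.95 and 1.13 FPKM in WT and 3.23, 3.68 and 3.92 FPKM in Cdk1 Liv-/- hepatocytes, and at 1.1, 1.17 and 1.13 FPKM in WT and 2.41, 2.68 and 2.31 FPKM in Cdk1 Liv-/- whole liver. Cdk1 Liv-/- hepatocytes were above Cdk1 Liv-/- livers and both above every WT library. Polk rose by 1.32 (SE 0.16, adjusted p = 0.00676) in hepatocytes and 0.86 (SE 0.080, adjusted p = 0.00199) in whole liver (0.90 without the Xist-positive library). Xpc, which recognises damage for nucleotide excision repair, rose in whole liver by 0.26 (SE 0.085, adjusted p = 0.0579) (0.31 without that library), but was 0.083 relative to all genes. Ddb2 and Ercc5, of the same repair pathway, and Rrm2b, a subunit of ribonucleotide reductase, passed in neither compartment, with changes between -0.033 and 0.26.

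Of the 34 genes, 27 had a promoter window, and 7 had none (Ddb2, Perp, Rrm2b, Tnfrsf10b, Trp53inp1, Xpc and Zmat3). The decamer was present in 12 of their 40 windows, from 11 genes, and in 8.36% of all windows or 9.55% of all genes with a window. It occurred for Cdkn1a, Ccng1, Gtse1, Rps27l, Aen, Ei24, Mdm2, Trp53, Ppm1d, Polk and Sesn1, genes that passed the test and genes that did not. A pair with at most 1 mismatch was present for 4 members, whose sequences are shown above, and for 0.718% of all genes with a window.

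**Figure D3:**
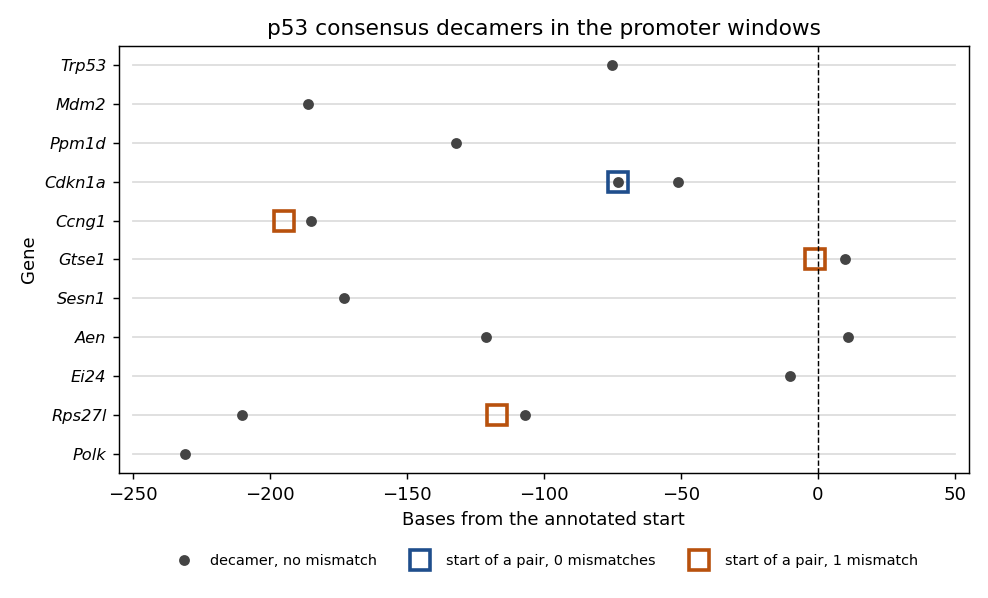
Positions of the p53 consensus decamer in the promoter windows of the 11 members that hold it (vertical axis), in bases from the annotated start (horizontal axis, dashed line at the start). Dots are decamers with no mismatch, and squares mark where a pair begins: blue with 0 mismatches (Cdkn1a, at -73) and orange with 1 mismatch (Ccng1 at -195, Rps27l at -117 and Gtse1 at -1).

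The 2 compartments were set against each other in 1 fit of all 12 libraries, as the hepatocyte change minus the whole liver change. Eda2r passed, with a difference of 1.19 (SE 0.22, adjusted p = 0.0362), and 0 members passed with a larger change in whole liver. Of all genes, 2.35% passed above 0 and 7.49% below. At an unadjusted p of at most 0.05 the members counted 5 above and 2 below, against 5.72% and 17.9% of all genes, and the median difference was 0.047 against -0.11 over all genes. With size factors the share above 0 among all genes called was 52.7%, against 23.9% as deposited, and 5 members passed above 0, where 3.15% of all genes did: Eda2r, Mdm2, Ccng1, Zmat3 and Polk. On that scale 0 members and 2.83% of all genes passed below 0. The difference for Eda2r was 1.29 without the Xist-positive library (adjusted p = 0.0511), and leaving out replicate 1 of WT whole liver ended the call (adjusted p = 0.105, range 0.0214 to 0.105 over all alternatives). Cdkn1a, which had the larger change in whole liver, differed by -1.10 (SE 0.41, adjusted p = 0.138), and passed only without WT whole liver replicate 3, the highest WT liver, at an adjusted p of 0.0611 (range 0.0611 to 0.278). Leaving out Cdk1 Liv-/- hepatocyte replicate 2 gave 2 members above 0 and replicate 3 gave 3, where 487 and 379 of the 17386 genes passed above, and leaving out WT hepatocyte replicate 2 gave 1 below, where 2232 of all genes did.

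Between WT hepatocytes and WT whole liver 2 of the 34 genes passed. Cdkn1a was higher in hepatocytes, by 1.2 (SE 0.29, adjusted p = 0.08102), and Rps27l lower, at -0.34 (SE 0.080, adjusted p = 0.0736). That is 1 member higher and 1 lower, where 0.224% of all genes were higher and 2.71% lower; with size factors the share higher among all genes called went from 7.65% to 30.5%, and Rps27l no longer passed. At an unadjusted p of at most 0.05, 5 members were higher and 4 lower, against 2.53% and 15.01% of all genes. These calls rest on few libraries: without WT hepatocyte replicate 1 or 2 or WT whole liver replicate 1 or 2, 0 members were higher and 0 lower, and without WT whole liver replicate 3, 1 was higher and 0 lower. Without WT hepatocyte replicate 3, 2 were higher (Cdkn1a and Trp53inp1) and 5 lower (Trp53, Fdxr, Ak1, Phlda3 and Rps27l), where 1.63% and 12.5% of all genes were, so the count of lower members is near that of all genes. The isolation of the cells and the loss of other cell types both go with this comparison and cannot be told apart in it.

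Other genes of the pathway were counted in lists written by hand. By the same test 12.1% of all genes were higher and 6.61% lower in hepatocytes, and 38.0% and 7.53% in whole liver. Without the Xist-positive library the whole liver shares were 31.5% and 5.71%. Of 13 tested genes that act on p53, 2 rose in hepatocytes and 5 in whole liver, shares near those of all genes. Without that library 6 rose in whole liver. In either compartment 0 were lower, and the medians of 0.14 and 0.18 were close to those of all genes. These counts depend on the scaling: with size factors 1 was higher and 1 lower in hepatocytes, and 1 was higher in whole liver. The checkpoint kinase gene Chek2 rose by 1.16 (adjusted p = 0.0199) in hepatocytes, from 2.06, 1.81 and 1.77 FPKM to 5.69, 5.47 and 3.52 FPKM, and Chek1 by 0.74 (adjusted p = 0.0978), which did not pass with size factors or without WT hepatocyte replicate 3. In whole liver Chek2, Mdm4, Trp53bp1 and Atr rose by 0.45, 0.42, 0.41 and 0.38 (0.45, 0.41, 0.29 and 0.40 without the Xist-positive library), and with size factors Mdm4 alone of the 4 passed. Cop1 was not found by that symbol, and Cdkn2a, Trp63 and Trp73 were under the filter.

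Of 10 death targets, 3 rose and 1 fell in hepatocytes and 7 rose in whole liver, 7 also without the Xist-positive library, with medians of 0.13 and 0.52. With size factors 3 rose and 2 fell in hepatocytes and 7 rose in whole liver. Bbc3, which encodes Puma, was at 0.92, 0.71 and 1.44 FPKM in WT and 4.65, 7.38 and 6.57 FPKM in Cdk1 Liv-/- hepatocytes and at 1.99, 1.84 and 1.99 FPKM in WT and 6.77, 6.94 and 4.95 FPKM in Cdk1 Liv-/- whole liver. Pmaip1, which encodes Noxa, was at 0.37, 0.22 and 0.68 FPKM and 2.8, 1.84 and 2.15 FPKM in the hepatocyte groups and at 0.38, 0.56 and 0.39 FPKM and 2.04, 2.79 and 2.32 FPKM in the whole liver groups. Neither gene's genotypes overlapped, and the Cdk1 Liv-/- libraries reached similar levels in both compartments. The changes were 2.14 (adjusted p = 0.00593) and 1.45 (adjusted p = 0.00198) for Bbc3, 1.60 (adjusted p = 0.0119) and 1.61 (adjusted p = 0.00131) for Pmaip1, and 1.07 (adjusted p = 0.00917) and 1.27 (adjusted p = 0.0016) for Bax, the pore-forming effector of apoptosis. Apaf1, of the apoptosome, rose by 0.99 (adjusted p = 0.00722) in whole liver. Without the Xist-positive library the whole liver changes of these 4 genes were 1.59, 1.62, 1.31 and 1.04. Trp53i11 fell in hepatocytes, with a change of -1.92 (adjusted p = 0.0505), and Casp8 had a smaller change in hepatocytes than in whole liver, with a difference of -0.49 (adjusted p = 0.05103).

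Of 20 other p53 targets, 5 rose in hepatocytes and 12 in whole liver (11 without the Xist-positive library), with 0 lower and medians of 0.39 and 0.55. Without WT hepatocyte replicate 3, 3 rose in hepatocytes. With size factors 4 were higher in hepatocytes, and 8 higher and 1 lower in whole liver. Psrc1, a protein of spindle microtubules, was at 1.42, 1.02 and 1.77 FPKM in WT and 24.9, 23.9 and 20.6 FPKM in Cdk1 Liv-/- hepatocytes and at 1.82, 1.82 and 1.34 FPKM in WT and 19.95, 23.2 and 20.7 FPKM in Cdk1 Liv-/- whole liver. No WT library reached 2 FPKM and all Cdk1 Liv-/- libraries were above 19 FPKM, and its changes were 3.65 (adjusted p = 0.000522) in hepatocytes and 3.34 (adjusted p = 0.000143) in whole liver. Ckap2, another spindle protein, rose by 2.27 and 1.66, Dram1, a lysosomal protein, by 0.61 and 0.98, Gadd45a by 0.95 in hepatocytes (adjusted p = 0.1002 without WT replicate 3) and Thbs1 by 1.53 in whole liver. Without the Xist-positive library the whole liver changes of Psrc1, Ckap2, Dram1 and Thbs1 were 3.36, 1.49, 1.10 and 1.57. Triap1 and Trp53i13 were lower in WT hepatocytes than in WT whole liver, at -0.33 (adjusted p = 0.0942) and -0.52 (adjusted p = 0.0819), and with size factors neither passed. Dglucy was not found by that symbol, and Zfp365 was under the filter.

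The CDK inhibitors apart from p21 did not move together. Of 5 tested, 1 rose and 1 fell in hepatocytes, where 12.1% and 6.61% of all genes did. In whole liver 2 rose and 1 fell, also without the Xist-positive library, and the 2 were near the 38.0% of all genes higher there. The medians were 0.37 and 0.27. With size factors 1 rose and 1 fell in each compartment. Cdkn2b rose by 0.43 in hepatocytes and 1.12 in whole liver, a difference of -0.69 (adjusted p = 0.0406), though its highest level was 0.83 FPKM. Cdkn1c fell, with changes of -1.52 and -0.67, from 12.1, 15.6 and 12.6 FPKM to 4.82, 6.02 and 2.74 FPKM in hepatocytes, and Cdkn1b rose by 0.34 in whole liver, where it did not pass with size factors. Without the Xist-positive library the whole liver changes of Cdkn2b, Cdkn1c and Cdkn1b were 1.11, -0.91 and 0.38.

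Of 12 immediate early genes, 6 rose in hepatocytes and 12 in whole liver (11 without the Xist-positive library, 9 with size factors), with 0 lower and medians of 1.22 and 1.196. Fos, Atf3, Ier3 and Klf6 rose in hepatocytes by 2.03, 1.98, 1.48 and 1.44, and Ier3, Atf3, Jun and Fos in whole liver by 2.75, 2.58, 2.27 and 2.18 (2.96, 2.90, 2.45 and 2.65 without the Xist-positive library). Their summed FPKM was 330, 165 and 137 in WT and 488, 371 and 380 in Cdk1 Liv-/- hepatocytes, and 68.3, 78.2 and 111 in WT and 215, 246 and 158 in Cdk1 Liv-/- whole liver, with the most abundant gene, Zfp36, at a mean of 63.1 FPKM. Fos, Jun and Zfp36 were higher in WT hepatocytes than in WT whole liver, by 1.97, 2.07 and 1.35. Their part in the values of Btg2, Plk2, Plk3 and Cdkn1a was not tested.

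Of 11 tested genes of the integrated stress response, among which Gdf15 and Sesn2 are also members, 3 rose in hepatocytes, and 8 rose and 1 fell in whole liver (7 and 0 without the Xist-positive library), with medians of 0.30 and 0.74. With size factors 2 rose in hepatocytes, and 4 rose and 1 fell in whole liver. Ddit3, the transcription factor Chop, rose by 1.37 in hepatocytes and Atf4 by 0.28, which did not pass with size factors. In whole liver Fgf21, Asns and Trib3 rose by 1.13, 1.01 and 0.95, and Chac1 fell, with a change of -0.84. Without the Xist-positive library Fgf21 and Trib3 rose by 1.09 and 1.00, and Asns (0.91, adjusted p = 0.103) and Chac1 (-0.88, adjusted p = 0.105) did not pass; with size factors Trib3 did not pass, and Asns and Chac1 did. The summed FPKM was 243, 257 and 283 in WT and 407, 236 and 291 in Cdk1 Liv-/- hepatocytes and 240, 265 and 286 in WT and 300, 366 and 353 in Cdk1 Liv-/- whole liver, with the most abundant gene, Atf5, at a mean of 194 FPKM, and its part in the change of Gdf15 was not tested. Slc7a11 was under the filter.

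Markers of liver cell types were counted in the same way, and some lists differed between the genotypes. In bulk RNA, fewer cells of a type and less RNA per cell cannot be told apart. Endothelial markers fell in Cdk1 Liv-/- hepatocytes, 9 of 10 (0 rose), and 1 of 10 rose in whole liver (0 without the Xist-positive library and 0 with size factors). Their summed FPKM was 142, 94.4 and 268 in WT and 64.97, 42.01 and 48.8 in Cdk1 Liv-/- hepatocytes, and 136, 157 and 190 in WT and 166, 215 and 169 in Cdk1 Liv-/- whole liver, with the most abundant gene, Stab1, at a mean of 31.4 FPKM. All 3 WT hepatocyte libraries were above all 3 Cdk1 Liv-/- ones, and WT replicate 3 was the highest of the 12 libraries.

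Kupffer cell and macrophage markers passed as lower for 1 of 10 in hepatocytes and as higher for 4 of 10 in whole liver (4 without the Xist-positive library), a share near the 38.0% of all genes; with size factors 4 were lower in hepatocytes and 2 higher in whole liver. Their sums were 325, 175 and 598 FPKM in WT and 203, 152 and 131 FPKM in Cdk1 Liv-/- hepatocytes, and 460, 515 and 520 FPKM in WT and 604, 832 and 636 FPKM in Cdk1 Liv-/- whole liver, with the most abundant gene, Cd5l, at a mean of 89.04 FPKM. Stellate cell and fibroblast markers gave 1 of 10 lower in hepatocytes and 7 of 10 higher in whole liver (7 without that library and 7 with size factors), with sums of 197, 119 and 398 FPKM, 121, 119 and 104 FPKM, 427, 423 and 487 FPKM and 824, 1019 and 784 FPKM in the same order of groups and the most abundant gene, Col3a1, at a mean of 174 FPKM. The Cdk1 Liv-/- livers were above the WT livers for both lists, while among hepatocytes WT replicate 3 was the highest and the genotypes overlapped.

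Monocyte and neutrophil markers gave 1 of 10 higher in hepatocytes and 7 of 10 in whole liver (3 without the Xist-positive library, 6 with size factors). The 1, and the 3 without that library, were near the shares of all genes, 12.1% and 31.5%. Sums of these markers were 14.6, 12.2 and 49.4 FPKM in WT and 21.5, 11.1 and 20.2 FPKM in Cdk1 Liv-/- hepatocytes. In whole liver they were 72.2, 45.2 and 68.6 FPKM in WT and 92.6, 313 and 251 FPKM in Cdk1 Liv-/- mice. The most abundant gene, S100a9, was at a mean of 36.2 FPKM. Cholangiocyte markers rose for 5 of 6 tested in hepatocytes and 5 of 6 in whole liver (3 without that library, 3 with size factors), with sums of 19.8, 15.03 and 30.4 FPKM, 69.1, 130 and 103 FPKM, 60.4, 63.5 and 46.7 FPKM and 280, 145 and 272 FPKM and the most abundant gene, Spp1, at a mean of 93.4 FPKM. These 2 lists were higher in Cdk1 Liv-/- livers than in WT livers in every library, and cholangiocyte markers in Cdk1 Liv-/- hepatocytes as well.

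Erythroid markers passed as lower for 2 of 8 in hepatocytes and 3 of 8 in whole liver (2 without the Xist-positive library), with sums of 147, 109 and 582 FPKM in WT and 72.5, 101 and 24.7 FPKM in Cdk1 Liv-/- hepatocytes, 1105, 1231 and 2171 FPKM in WT and 1166, 1767 and 1455 FPKM in Cdk1 Liv-/- whole liver, and the most abundant gene, Hbb-bs, at a mean of 347 FPKM. Lymphocyte markers passed as lower for 5 of 10 and 3 of 10 (0 without that library), with sums of 6.99, 3.9 and 11.6 FPKM, 2.15, 1.52 and 1.65 FPKM, 23.2, 27.8 and 22.3 FPKM and 11.5, 22.2 and 15.1 FPKM and the most abundant gene, Gzma, at a mean of 2.42 FPKM. Both sums were lowest in the 3 Cdk1 Liv-/- hepatocyte libraries, and among the hepatocyte libraries highest in WT replicate 3.

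Hepatocyte markers were abundant in all 12 libraries. WT sums were alike in hepatocytes and whole liver, so these markers cannot check the label of the isolated cells. Their sums were 102400, 113700 and 109200 FPKM in WT and 71900, 74070 and 68980 FPKM in Cdk1 Liv-/- hepatocytes. In whole liver they were 106700, 104500 and 109300 FPKM in WT and 81850, 76790 and 80280 FPKM in Cdk1 Liv-/- mice. The most abundant of these markers, Alb, was at a mean of 52250 FPKM. Of 10, 2 were higher and 2 lower in hepatocytes and 5 lower in whole liver (4 without the Xist-positive library); without WT hepatocyte replicate 3, 0 were higher in hepatocytes, and with size factors 1 was. Over the 8 marker lists no gene was at 0 in all 12 libraries, while Ly6g was at 0 in some hepatocyte libraries. In the difference of the 2 changes 8 endothelial, 4 stellate, 3 Kupffer cell and 2 monocyte and neutrophil markers passed below 0 and 3 hepatocyte markers above it. Without the Xist-positive library these counts were 4, 0, 0, 1 and 1, and with size factors 5, 0, 1, 2 and 3. In WT hepatocytes against WT whole liver 8 lymphocyte, 4 erythroid, 3 cholangiocyte and 1 stellate marker passed as lower, and 0 Kupffer cell, monocyte and neutrophil or endothelial markers did. Leaving out WT hepatocyte replicate 3 changed which cell types differed there: without it 9 lymphocyte, 4 erythroid, 3 cholangiocyte, 7 stellate, 7 Kupffer cell, 7 monocyte and neutrophil and 1 endothelial marker passed as lower. Without that replicate 8 endothelial, 3 lymphocyte, 1 erythroid, 0 Kupffer cell and 0 stellate markers were lower in Cdk1 Liv-/- than in WT hepatocytes. The part of these cell types in the changes of the 34 genes was not tested. Without WT hepatocyte replicate 3, 17 members and 8.61% of all genes rose in hepatocytes: Btg2 (adjusted p = 0.122) and Pidd1 (adjusted p = 0.169) no longer passed and Plk2 did.

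**Figure D4:**
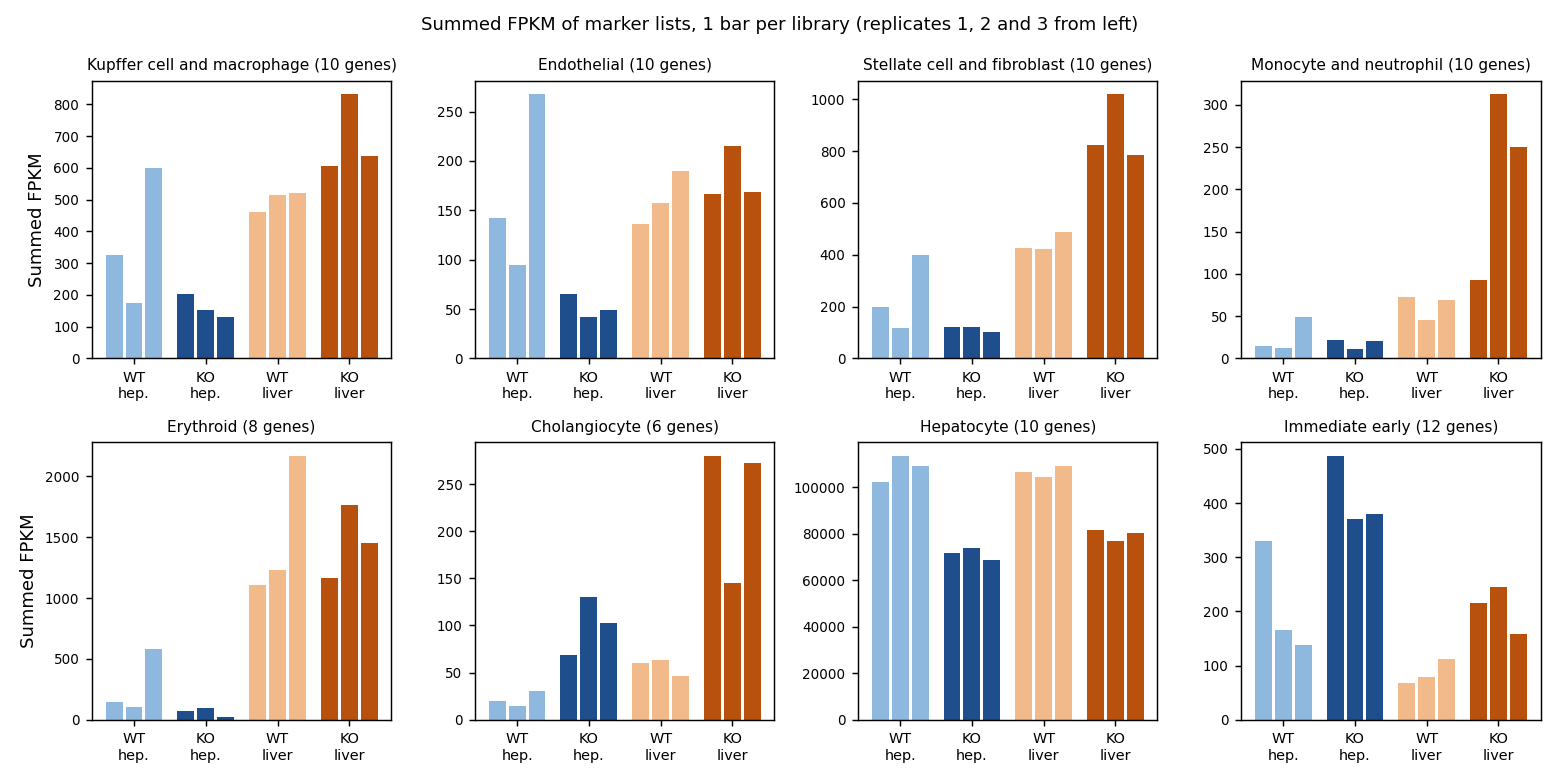
Summed FPKM (vertical axes, from 0) of 7 marker lists and of the immediate early genes in each of the 12 libraries, 1 bar a library with replicates 1, 2 and 3 from left in each group; hep. stands for isolated hepatocytes and KO for Cdk1 Liv-/-. WT hepatocyte replicate 3 has the highest Kupffer cell, endothelial, stellate and erythroid sums of the hepatocyte libraries, at 598, 268, 398 and 582 FPKM.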

How the data were processed

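RNA of 12 liver libraries was prepared with a stranded polyadenylated RNA kit and read as single-end 75-base reads. The deposited FPKM values were made by the authors, who aligned to mm10 with STAR (version not stated) and quantified with RSEM 1.2.31, per the submitters' processing notes, with no normalization between libraries. Their annotation release is not stated. For positions and overlaps GENCODE M21 on GRCm38 was used, in which all 34 members and 46574 of 47069 identifiers were found. All 12 columns were matched to libraries (0 unmatched). Plk3, Ei24, Ddb2 and Rrm2b share 84, 324, 652 and 734 exonic bases with a gene on the other strand, whose reads cannot be told apart from theirs there.

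From these values log2(FPKM + 0.5) was fitted with limma 3.58.1 (empirical Bayes with a trend) in R 4.3.3, Cdk1 Liv-/- against WT within each compartment. The difference of the 2 changes and the difference between WT hepatocytes and WT whole liver came from 1 limma fit of the 12 libraries. Genes with a mean of at least 0.1 FPKM were tested (17386), p-values were adjusted over them by Benjamini and Hochberg, and 0.1 was the threshold. All adjusted p-values are from limma, except that a two-sample test with q-values was run as an alternative; it was not set against the study's own counts. Depth was only estimated, from low values of short genes, and FPKM was not turned back into the counts that a count model needs. The other alternatives were other added constants (0.1 and 1), no filter or a mean of at least 1 FPKM, median-ratio size factors, each library left out, a replicate block, 1 fit of all 12 libraries, a threshold of 0.05, and a log2 change of at least 1 besides. Of the tested genes, 75 share the values of another gene, 0 of them members.

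The members, and the lists of p53 regulators, death targets, other p53 targets, CDK inhibitors, immediate early genes, integrated stress response genes and markers of 8 cell types, were chosen with earlier results of these data known. Named with the value in every library are Trp53, Cdkn1a, Mdm2, every member past the test in hepatocytes or in the difference of the changes, and the 5 past it in whole liver with the largest changes. Of each further list apart from the cell type markers, at most 4 genes past the test with the largest changes in a comparison are named. Many of these are given without library values. Other names were chosen after their values were seen. Of the cholangiocyte markers, 1 is not reported here and is left out of the sums.

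Depth was estimated from the spacing of low FPKM values of short genes with 1 annotated transcript, where 63.8% to 71.4% of values lay on the steps of whole reads, against 17.9% to 25.1% from the spacing alone, and was tested on simulated data. Promoter windows were 250 bases before to 50 after each start annotated in RefSeq on GRCm38.p6, 32851 windows of 27025 genes. Figures were drawn with matplotlib 3.10.9 in Python 3.11.15.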

Additional observations from a re-analysis of the deposited data

Results flagged for a closer look

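Eda2r had a larger genotype change in hepatocytes than in whole liver, which the rule for changes that differ between groups picked out. The difference of the log2 fold changes was 1.187 (limma, adjusted p = 0.0362), from 2.59 in hepatocytes and 1.41 in whole liver. Levels were 0.16, 0.03 and 0.08 FPKM in WT and 2.48, 3.35 and 3.39 FPKM in Cdk1 Liv-/- hepatocytes, and 0.08, 0.07 and 0.11 FPKM in WT and 1.14, 0.78 and 1.29 FPKM in Cdk1 Liv-/- whole liver. Eda2r lies on the X chromosome; without the Xist-positive library the adjusted p of the difference was 0.0511, and without WT whole liver replicate 1 it was 0.105, the highest of a range of 0.0214 to 0.105 over 18 alternatives. The cause was not tested.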

How the results depend on the processing

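Values here are counts of members past the limma test, with those of all 17386 genes where they moved by more than 1.5 times. In hepatocytes the 18 higher members were 16 to 18 with a library left out, 16 with no filter, 17 with size factors, 17 at an adjusted p of 0.05, 15 with the fold rule, 19 with the two-sample test and 21 with all 12 libraries in 1 fit, and 0 were lower throughout. In whole liver the 26 higher were 20 (without WT replicate 1) to 25 with a library left out, 24 with no filter, 25 with a mean of at least 1 FPKM, 19 with size factors, 23 at 0.05, 15 with the fold rule, 26 with the two-sample test and 23 with all 12 libraries in 1 fit; the 0 lower became 1 with a mean of at least 1 FPKM, 1 with all 12 libraries in 1 fit, 1 with the two-sample test, 3 with size factors, and 0 to 1 with a library left out (1 without the Xist-positive library). For the difference between compartments, 1 above 0 became 5 with size factors and 0 (without WT whole liver replicate 1) to 3 (without Cdk1 Liv-/- hepatocyte replicate 3) with a library left out, and 0 below became 0 to 1 (without WT hepatocyte replicate 2 or WT whole liver replicate 3). For WT hepatocytes against WT whole liver, 1 higher became 0 with no filter, 0 at an adjusted p of 0.05 and, with a library left out, 0 (the first WT hepatocyte replicate among them) to 2 (the third), and 1 lower became 2 with 0.1 added, 0 with size factors, 0 at 0.05 and 0 to 5 (the same replicates). No member past the test passed in the other direction in an alternative, but some changes that did not pass crossed 0, among them Ppm1d in whole liver from 0.095 to -0.096 and Ddb2 from 0.10 to -0.098 with size factors, Ercc5 in whole liver to 0.021 without the Xist-positive library and Plk2 in hepatocytes down to -0.0069, and the median of the members in the WT comparison went from -0.081 to 0.027 with size factors. Over all genes, hepatocytes gave 2108 higher and 1149 lower: 3434 and 2072 with all 12 libraries in 1 fit, 1303 and 527 at 0.05, 730 and 377 with the fold rule, 714 lower with no filter, and 1157 to 1622 and 402 to 1224 with a library left out. Whole liver gave 6610 higher and 1310 lower: 3107 and 2844 with size factors, 798 and 174 with the fold rule, 2014 lower with the two-sample test, and 4509 to 6190 and 859 to 1296 with a library left out. The difference between compartments gave 409 above and 1303 below 0: 237 and 678 with no filter, 492 below with size factors, 95 and 177 at 0.05, and 35 to 487 and 43 to 2232 with a library left out. The WT comparison gave 39 higher and 471 lower: 21 and 183 with a mean of at least 1 FPKM, 113 and 257 with size factors, 13 and 198 at 0.05, and 4 to 283 and 90 to 2174 with a library left out. Of single genes, Btg2, Pidd1 and Fdxr in hepatocytes lost their calls in 4, 8 and 1 of 14 alternatives, and in whole liver Sesn1 and Perp in 8, Xpc in 6 (size factors, 1 fit of all libraries, or without WT replicate 1 or 3 or Cdk1 Liv-/- replicate 1 or 2), Sesn2 and Pidd1 in 3, Cd82 in 2 and Fdxr in 1.

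Libraries of the same number were also fitted as a replicate block. This gave 17 higher members in hepatocytes, where Pidd1 (adjusted p = 0.173) and Fdxr (0.111) did not pass and Trp53inp1 did, 25 in whole liver, 1 above 0 for the difference and 1 higher and 1 lower in WT, and over all genes 1048 and 408 in hepatocytes, 5567 and 1042 in whole liver, 201 and 455 for the difference and 18 and 251 in WT. The numbers did not behave as pairs: correlations of libraries with the same number ran from -0.318 to 0.239, and 1 of 6 libraries in each compartment correlated best with its own number.

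With 3 libraries a group, a change that did not pass is not shown to be absent. FPKM holds no counts, so counting error enters only through the spread between libraries. RNA levels say nothing of p53 protein. Whole liver mixes cell types, 1 of its libraries does not match the sex the methods state, and the added 0.5 shrinks the changes of Eda2r, Ak1, Tnfrsf10b and Zmat3.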

Other observations

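Replicate 2 of Cdk1 Liv-/- whole liver had the highest monocyte and neutrophil marker sum, 313 FPKM, and the lowest cholangiocyte sum of its group, 145 FPKM against 280 and 272 FPKM in replicates 1 and 3. Fas, which did not pass in whole liver, was at 30.2, 18.2 and 20.8 FPKM in Cdk1 Liv-/- livers against 16.2, 18.4 and 17.5 FPKM in WT livers, with Cdk1 Liv-/- replicate 1 alone far above the WT range.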
